A study of Mus musculus with 6 samples.

Results

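The genes described here mark regulatory T (Treg) cells in the mouse: Foxp3 and 9 genes usually expressed with it. They were read by symbol from a gene-level expression table, and all 10 were found among its 24493 genes. The table covers 6 messenger RNA libraries of cells labelled Treg, which had been differentiated in culture from naive CD4 T cells of mouse spleen. Of these, 3 carried the genotype Ifnar1-SA and 3 were wild type (WT), and no other agent or allele is named for either group. Ifnar1 is the gene of 1 chain of the receptor for type I interferons. The SA allele is known from published work as a knock-in that swaps a serine for an alanine in the signal through which this chain is degraded. Strain, age, the inducing cytokines, any sort for Treg cells and the animal or culture behind each library: none of this is given in the sources used here. P-values therefore cover only the spread between these libraries, and that spread may be technical. Expression is in TPM, a transcript share corrected for length with a total of 1e+06 per library, so levels can be set side by side between genes but read depth is unknown.

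Foxp3 is the forkhead transcription factor that defines the Treg lineage and holds its gene programme. In the thymus and in peripheral tissue it works with the Ikaros family factors Helios (Ikzf2) and Eos (Ikzf4). The surface proteins that travel with it include GARP (Lrrc32), which docks latent TGF-beta, the integrin chain CD103 (Itgae), neuropilin-1 (Nrp1), the receptor Gpr83, folate receptor 4 (Izumo1r), and the ectoenzymes CD39 (Entpd1) and CD73 (Nt5e), which turn extracellular ATP into adenosine. Several of them are not exclusive to Treg cells: folate receptor 4, CD73 and CD39 are also found on activated or anergic CD4 T cells.

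Promoter sequence is given as the 250 bases before an annotated start, from RefSeq on GRCm38.p6, where 6 of the 10 genes had an entry. Both starts of Foxp3 are printed because Foxp3 is the gene around which the others are grouped. Those of Izumo1r and Gpr83 are printed because these genes were the most abundant of the 10 and lie next to each other on chromosome 9. Capitals mark matches, on either strand, to any of 7 short motifs: forkhead TGTTTAC, RUNX TGTGGTT, STAT TTCNNNGAA, interferon response GAAANNGAA, AP-1 TGANTCA, NFAT GGAAAA and TATA box TATAAA.
Foxp3, upstream start, chrX:7579426-7579675, plus strand: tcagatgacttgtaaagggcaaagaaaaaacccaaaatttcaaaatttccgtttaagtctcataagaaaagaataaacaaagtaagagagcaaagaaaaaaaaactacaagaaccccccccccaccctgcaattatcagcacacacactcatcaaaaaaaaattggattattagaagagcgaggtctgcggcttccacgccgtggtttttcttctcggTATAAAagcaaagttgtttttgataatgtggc
Foxp3, downstream start, chrX:7580233-7580482, plus strand: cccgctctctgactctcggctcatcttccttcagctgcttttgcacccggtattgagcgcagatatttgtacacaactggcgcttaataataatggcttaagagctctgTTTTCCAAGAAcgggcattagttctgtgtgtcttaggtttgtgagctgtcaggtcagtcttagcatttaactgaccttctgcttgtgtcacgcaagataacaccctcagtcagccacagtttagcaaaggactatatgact
Izumo1r, chr9:14903768-14904017, minus strand: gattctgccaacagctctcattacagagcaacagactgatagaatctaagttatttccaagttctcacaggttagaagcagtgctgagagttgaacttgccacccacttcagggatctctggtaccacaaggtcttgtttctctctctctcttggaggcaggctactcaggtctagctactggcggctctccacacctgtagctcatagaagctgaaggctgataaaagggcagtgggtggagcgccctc
Gpr83, chr9:14859960-14860209, plus strand: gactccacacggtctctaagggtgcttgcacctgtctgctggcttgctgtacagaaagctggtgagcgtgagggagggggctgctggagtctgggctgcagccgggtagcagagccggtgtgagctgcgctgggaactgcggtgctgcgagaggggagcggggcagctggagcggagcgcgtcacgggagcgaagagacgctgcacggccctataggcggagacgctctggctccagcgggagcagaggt
The upstream Foxp3 window held a TATA match from 32 to 27 bases before the start, a motif found in 12.4% of 32851 promoter windows of the same length. In the downstream window an NFAT match (141 to 136 bases before the start) and a STAT match (139 to 131 bases before) overlapped, and these motifs occurred in 20.4% and 7.02% of windows. None of the 7 motifs was found in the windows of Izumo1r and Gpr83, and the interferon response motif, present in 7.13% of all windows, was in none of the 4 printed. A match or its absence describes these letters only.

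The 10 genes spanned more than 3 orders of magnitude, and 1 of them held nearly all of the transcripts. Izumo1r made up 94.3% to 95.4% of the summed TPM of the 10 genes in the Ifnar1-SA libraries and 93.6% to 94.6% in the WT libraries. Together the other 9 genes came to 30.9, 25.2 and 22.1 TPM in Ifnar1-SA and to 24.9, 32.9 and 28.5 TPM in WT. Of the 10 genes, 8 reached a mean of 1 TPM over the 6 libraries and 3 reached 5 TPM, and in single libraries between 6 and 9 were at 1 TPM or more. Only 6 were at 1 TPM or more in every library, since Itgae was below it in 3 of 6 libraries and Ikzf2 in 2.

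The label of the cells was set against 4 genes listed as Treg markers. Foxp3 and Ikzf2 were low, and Il2ra and Ctla4 were high. Foxp3 was at 0.746, 1.82 and 0.759 TPM in Ifnar1-SA and at 0.697, 0.295 and 0.276 TPM in WT. Its percentile among all genes of a library lay between 27.6 and 58.8, and it was below 1 TPM in 5 of 6 libraries, the exception being Ifnar1-SA 2. Ikzf2 did not exceed 1.97 TPM, at 1.26, 1.05 and 0.792 TPM in Ifnar1-SA and 0.859, 1.97 and 1.35 TPM in WT. By contrast Il2ra, the alpha chain of the interleukin-2 receptor, averaged 437 ± 12.7 TPM in Ifnar1-SA and 390 ± 34.8 TPM in WT (SD, n = 3 each). Ctla4, the inhibitory receptor, averaged 805 ± 61.7 TPM in Ifnar1-SA and 575 ± 111 TPM in WT. Both are also made by activated CD4 T cells, and all 4 genes were listed as Treg markers with earlier results of these data known. Gata3 was at 74.1 to 215 times the Foxp3 TPM in the Ifnar1-SA libraries and at 199 to 537 times in the WT libraries. It is the factor of type 2 helper cells and was also listed among regulators and partners of Foxp3. Il5, the most abundant helper cytokine gene listed, averaged 548 ± 40.3 TPM in Ifnar1-SA and 422 ± 124 TPM in WT. Il4 averaged 440 ± 183 TPM in Ifnar1-SA and 302 ± 67.0 TPM in WT, and Batf 920 ± 54.9 and 829 ± 16.1 TPM. Of 7 helper lineage factors 6 were tested, and of 10 helper cytokines 7. None passed, and the median log2 fold changes were 0.14 and 0.41. In bulk RNA a small share of Foxp3-expressing cells and a low level per cell cannot be told apart.

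**Figure D1:**
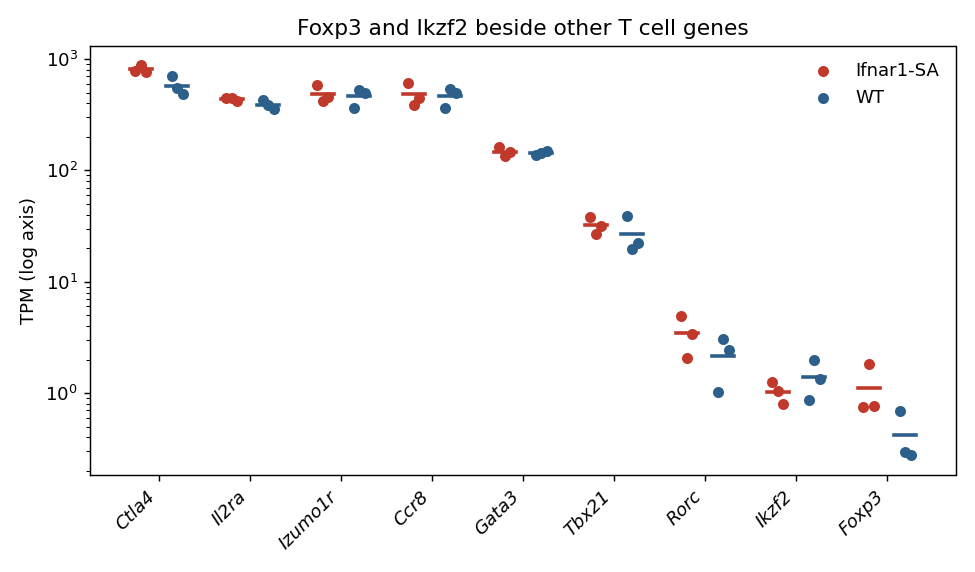
TPM on a log axis of Foxp3 and Ikzf2 beside 7 other T cell genes, with 1 point per library and a line at the mean of 3 Ifnar1-SA (red) and 3 WT (blue) libraries. Foxp3 stayed between 0.276 and 1.82 TPM, while Gata3 lay between 135 and 161 TPM.

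Izumo1r, which encodes folate receptor 4, was the dominant gene of the group. It lies on GRCm38 chromosome 9 (14885814 to 14903949, minus strand, protein-coding). Its level was 588, 419 and 455 TPM in Ifnar1-SA and 364, 525 and 499 TPM in WT, and the libraries of the genotypes overlapped throughout. This placed it at rank 306 by mean TPM among all 24493 genes and between the 98.3 and 99.0 percentile in single libraries. The log2 fold change was 0.08 (SE 0.21, 95% interval −0.42 to 0.57, limma adjusted p = 0.9997). Its relatives were close to the floor: Folr1 averaged 0.533 ± 0.271 TPM in Ifnar1-SA and 0.653 ± 0.442 TPM in WT, and Folr2 averaged 0.743 ± 0.107 TPM in Ifnar1-SA and 0.800 ± 0.329 TPM in WT (SD, n = 3 each). Slc19a1, the reduced folate carrier, averaged 25.7 ± 7.75 TPM in Ifnar1-SA and 28.3 ± 8.63 TPM in WT. The other folate transporter on the list, Slc46a1, averaged 1.82 ± 0.849 TPM in Ifnar1-SA and 1.95 ± 0.462 TPM in WT.

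Gpr83, a G protein-coupled receptor gene long used as a Treg marker, came next. It is the neighbour of Izumo1r on chromosome 9 (14860210 to 14870789, plus strand), with 15024 bases and 0 annotated genes between them. Gpr83 was at 11.3, 6.46 and 6.88 TPM in Ifnar1-SA and at 7.05, 12.1 and 11.1 TPM in WT, with overlap. The log2 fold change was −0.27 (SE 0.27, 95% interval −0.91 to 0.36). The TPM of Izumo1r was 52.0, 64.8 and 66.2 times that of Gpr83 in Ifnar1-SA and 51.6, 43.5 and 44.8 times in WT. These ratios, chosen after their values were seen, were above every WT ratio in all 3 Ifnar1-SA libraries, though the lowest Ifnar1-SA and the highest WT ratio nearly met. The exact two-sided permutation p of 0.1 for the log2 ratio is the smallest that 3 against 3 libraries allow. That p stayed at 0.1 without Ifnar1-SA 1 and was 0.2 when any other single library was left out. The log2 ratio of Izumo1r to Foxp3, also tested, differed by −1.31 (exact two-sided permutation p = 0.3).

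**Figure D2:**
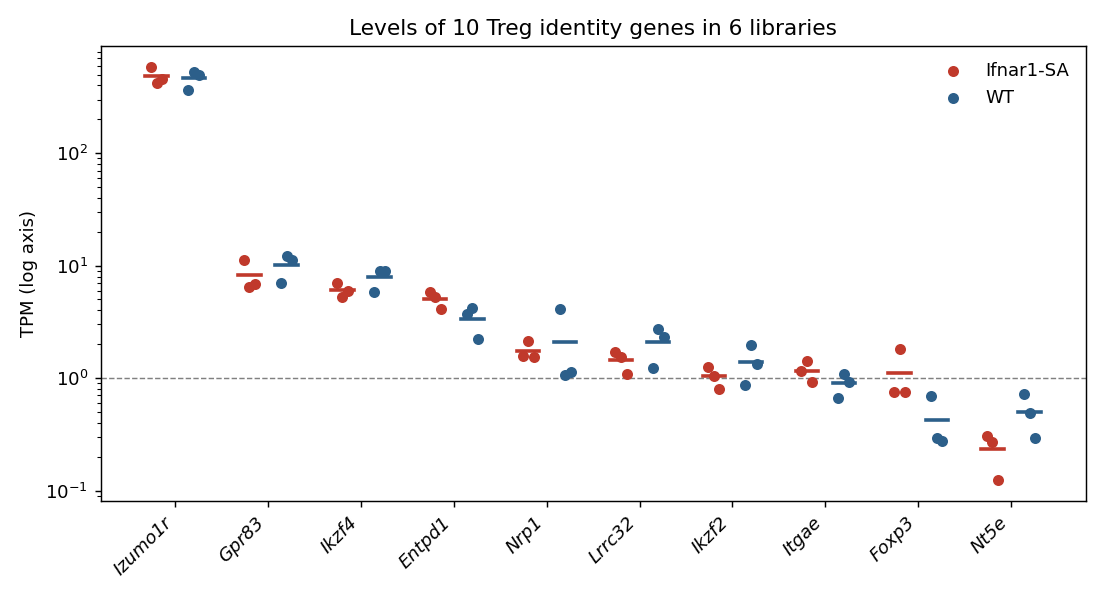
TPM of the 10 genes on a log axis, ordered by mean level, with 1 point per library and a line at the mean of 3 Ifnar1-SA (red) and 3 WT (blue) libraries; the dashed line marks 1 TPM. Izumo1r stands alone between 364 and 588 TPM, and the other 9 genes lie below 12.1 TPM.

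The order of mean levels was Izumo1r, Gpr83, Ikzf4, Entpd1, Nrp1, Lrrc32, Ikzf2, Itgae, Foxp3 and Nt5e. Of the 9 steps in this order, only that from Izumo1r to Gpr83 separated the ranges of the 2 genes. Within libraries the order was firmer for some pairs: Gpr83 was above Ikzf4 in 6 of 6 libraries and Lrrc32 above Ikzf2 in 6 of 6. Nrp1 was above Lrrc32 in 3 of 6, and Foxp3 above Nt5e in 3 of 6.

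Of the Ikaros family factors Helios and Eos, Eos was the more abundant. Ikzf4, which encodes Eos and sits on the minus strand of chromosome 10 (128630843 to 128645991), was at 7.04, 5.27 and 5.89 TPM in Ifnar1-SA and at 5.88, 8.96 and 8.89 TPM in WT. The genotypes overlapped, with the lowest WT library beside the middle Ifnar1-SA one, and the log2 fold change was −0.32 (SE 0.20, 95% interval −0.79 to 0.15). Ikzf2, which encodes Helios (chromosome 1, 69531214 to 69687245, minus strand) and is a feature of thymus-derived Treg cells, had a log2 fold change of −0.21 (SE 0.23, 95% interval −0.76 to 0.33). The TPM of Ikzf4 was 5.04 to 7.44 times that of Ikzf2 in Ifnar1-SA and 4.54 to 6.85 times in WT. Of the family members that are not Treg markers, Ikzf3 (Aiolos) averaged 20.1 ± 5.31 TPM in Ifnar1-SA and 19.99 ± 7.59 TPM in WT, and Ikzf1 (Ikaros) averaged 8.67 ± 0.933 TPM in Ifnar1-SA and 9.61 ± 1.56 TPM in WT (SD, n = 3 each). Ikzf5 (Pegasus) was lower than Ikzf4, at 1.75, 2.30 and 2.12 TPM in Ifnar1-SA and 3.01, 2.37 and 2.45 TPM in WT. The log2 fold change of Ikzf5 was −0.24 (limma adjusted p = 0.9997).

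The genes that tie Treg cells to TGF-beta and to epithelium were low. Lrrc32, whose product GARP presents latent TGF-beta on activated Treg cells (chromosome 7, 98489283 to 98502181, plus strand), was at 1.71, 1.53 and 1.10 TPM in Ifnar1-SA and 1.22, 2.73 and 2.32 TPM in WT. The log2 fold change was −0.31 (SE 0.24, 95% interval −0.89 to 0.27), with overlapping libraries. Its cargo gene Tgfb1 averaged 4.85 ± 0.568 TPM in Ifnar1-SA and 4.20 ± 0.477 TPM in WT (SD, n = 3 each). Itgae, the alpha chain that binds E-cadherin (chromosome 11, 73090583 to 73147446, plus strand) and a gene usually induced in T cells by TGF-beta, was at 1.15, 1.42 and 0.922 TPM in Ifnar1-SA and 0.669, 1.10 and 0.932 TPM in WT. Its log2 fold change was 0.19 (SE 0.20, 95% interval −0.27 to 0.65). Itgb7, its beta chain, was far above it at 62.7 ± 22.6 TPM in Ifnar1-SA and 69.3 ± 21.3 TPM in WT (SD, n = 3 each). Haspin lies on the opposite strand inside the Itgae locus and shares 0 exonic bases with it.

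Nrp1, a co-receptor for semaphorins and VEGF (chromosome 8, 128358604 to 128503363, plus strand), was set apart by 1 library. It was at 1.58, 2.13 and 1.54 TPM in Ifnar1-SA and at 4.08, 1.07 and 1.12 TPM in WT, so WT 1 was above every other library and the other 2 WT libraries were below all Ifnar1-SA libraries. The log2 fold change was −0.04 (SE 0.36, 95% interval −0.90 to 0.82), and it was 0.39 without WT 1 (limma adjusted p = 0.717). Its relative Nrp2 averaged 0.525 ± 0.0485 TPM in Ifnar1-SA and 0.625 ± 0.114 TPM in WT (SD, n = 3 each).

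The 2 ectoenzymes of the adenosine pathway leaned in opposite directions. Entpd1, which encodes CD39 and degrades ATP to AMP (chromosome 19, 40612366 to 40741602, plus strand), was at 5.82, 5.31 and 4.10 TPM in Ifnar1-SA and at 3.70, 4.21 and 2.23 TPM in WT. Only the lowest Ifnar1-SA library lay below the highest WT library. The log2 fold change was 0.49 (SE 0.23, 95% interval −0.04 to 1.02, limma adjusted p = 0.9997). Nt5e, which encodes CD73 and converts AMP to adenosine (chromosome 9, 88327197 to 88372092, plus strand), was at 0.305, 0.272 and 0.124 TPM in Ifnar1-SA and at 0.718, 0.490 and 0.294 TPM in WT. It was under the filter of a mean of 1 TPM, and the genotypes overlapped at their edges. Its exact two-sided permutation p was 0.2, in a test that cannot go below 0.1 and so could not pass. The ratio of Entpd1 to Nt5e, chosen after the values were seen, was 19.1, 19.5 and 33.2 in Ifnar1-SA and 5.15, 8.60 and 7.59 in WT. The groups did not overlap, and the mean log2 ratio differed by 1.73 (p = 0.1 by exact two-sided permutation, the lowest value possible). This ratio rests on Nt5e values below 1 TPM.

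**Figure D3:**
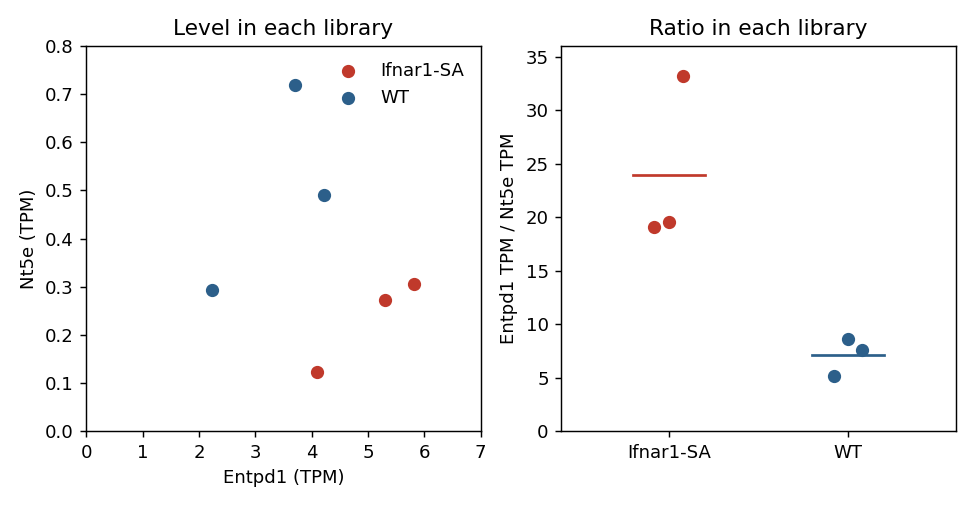
Left, Nt5e against Entpd1 in TPM, 1 point per library of 3 Ifnar1-SA (red) and 3 WT (blue); right, the ratio of Entpd1 to Nt5e TPM in each library with a line at the mean. The Ifnar1-SA ratios lie between 19.1 and 33.2 and the WT ratios between 5.15 and 8.60.

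Downstream of these enzymes the named genes of adenosine sensing and removal differed widely in level, with Adora2a the lowest and Adk the highest. Adora2a, the main adenosine receptor of T cells, averaged 1.61 ± 0.635 TPM in Ifnar1-SA and 1.55 ± 0.170 TPM in WT. Ada, which deaminates adenosine, averaged 4.65 ± 1.32 TPM in Ifnar1-SA and 3.44 ± 0.605 TPM in WT. Adk, which phosphorylates adenosine, averaged 92.4 ± 12.7 TPM in Ifnar1-SA and 68.7 ± 16.9 TPM in WT (SD, n = 3 each). Cd38, an ectoenzyme that consumes NAD, was at 2.21, 2.33 and 1.97 TPM in Ifnar1-SA and 4.15, 3.66 and 2.54 TPM in WT (limma adjusted p = 0.9997). Of the 20 tested genes of the ATP and adenosine list, 0 passed in either direction, and the median log2 fold change was −0.01 beside −0.06 over all genes.

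Foxp3 itself (chromosome X, 7573644 to 7595245, plus strand) was the 1 gene of the 10 whose libraries did not overlap between genotypes. Of all 24493 genes, 1.66% were higher in Ifnar1-SA without overlap. That share covers this direction only, and the share lower without overlap was not counted. The gap was narrow, with the lowest Ifnar1-SA library at 0.746 TPM beside WT 1 at 0.697 TPM, and Ifnar1-SA 2 stood highest at 1.82 TPM. The mean was 1.11 ± 0.615 TPM in Ifnar1-SA and 0.423 ± 0.237 TPM in WT (SD, n = 3 each), a ratio of 2.62. On the log2(TPM + 1) scale the difference was 0.54 and the exact two-sided permutation p was 0.1, the smallest that 3 against 3 libraries allow. Fitted by limma without the filter, it had a 95% interval of −0.05 to 1.14 (adjusted p = 1). The difference was 0.31 without Ifnar1-SA 2 and 1.19 with a pseudocount of 0.1, and with median-of-ratios or quantile scaling the permutation p was 0.2. The Foxp3 locus shares 590 of its 4577 exonic bases with Ccdc22 on the opposite strand, which was at 10.4, 6.51 and 6.77 TPM in Ifnar1-SA and at 6.62, 9.47 and 7.84 TPM in WT. It also shares 853 with the long noncoding RNA gene Flicr on its own strand, at most 0.325 TPM, so low Foxp3 values are uncertain where reads could be split between these genes.

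None of the 8 genes above the filter passed the comparison of genotypes. By limma 7 of 12141 genes passed an adjusted p of 0.05, which is 0.0577%, and 0 of the 8 did. The count over all genes was 14 to 28 when 1 library was left out, still with 0 of the 8. At an unadjusted p under 0.05 the table held 379 genes, or 3.12%, and again 0 of the 8. The median log2 fold change of all 10 genes was −0.13, beside −0.06 over the genes tested, with 4 genes higher and 6 lower in Ifnar1-SA by mean log2 value. The intervals of the 8 leave room for differences of up to about 1 unit on the log2 scale, so missing the threshold does not show equal expression.

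**Figure D4:**
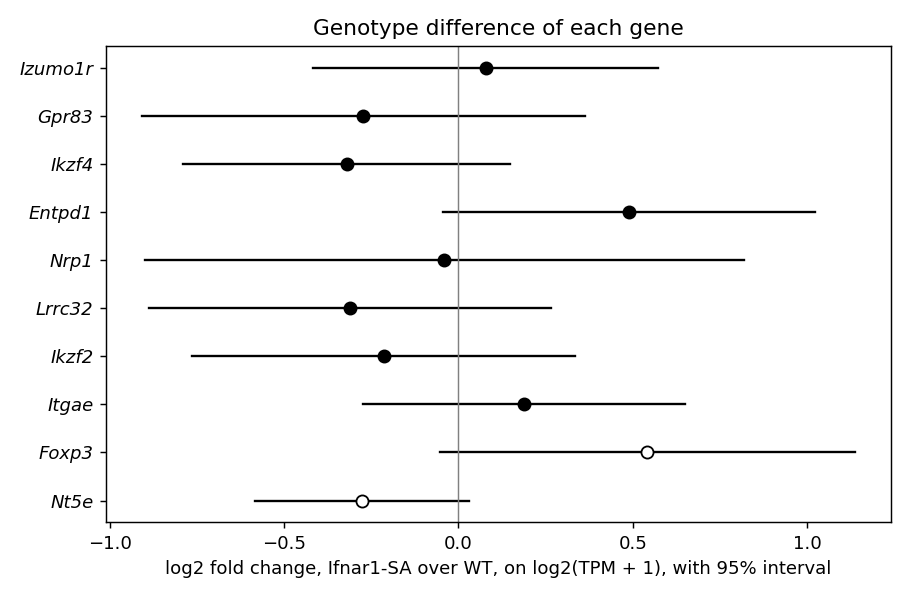
Log2 fold change of each gene, Ifnar1-SA over WT on log2(TPM + 1), with 95% limma intervals from 3 libraries per genotype; open points mark Foxp3 and Nt5e, under the expression filter and fitted without it. All 10 intervals include 0, and the points run from −0.32 for Ikzf4 to 0.54 for Foxp3.

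Variation between libraries of the same genotype was shared by several of the genes. In Izumo1r, Gpr83, Ikzf4, Lrrc32 and Ikzf2 alike the 3 lowest libraries were WT 1, Ifnar1-SA 2 and Ifnar1-SA 3. That order, picked out after seeing these 5 genes, held for 20.5% of all 12141 genes tested. The same 3 libraries also had the fewest genes above 0 TPM, with 21925 and 22147 in Ifnar1-SA 2 and 3 and 22129 in WT 1, against 22635 in Ifnar1-SA 1 and 22958 and 22796 in WT 2 and 3. The part of gene detection in the shared order was not tested. Foxp3, Entpd1, Nrp1, Itgae and Nt5e did not have this order, and Foxp3 was highest in Ifnar1-SA 2 and lowest in WT 3.

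Of the 45 pairs among the 10 genes, Ikzf2 and Lrrc32 were the most alike over the 6 libraries. Pearson's r of log2(TPM + 1) was 0.963 (exact permutation p = 0.00139, adjusted over 45 pairs p = 0.0625) and Spearman's rho 1.0 (exact permutation p = 0.00278, adjusted p = 0.125). Without the 2 libraries farthest from the Ikzf2 median r was 0.932. By Pearson's r the most opposed pair was Foxp3 and Ikzf4, with r = −0.873 (exact permutation p = 0.0111, adjusted p = 0.208), rho = −0.771 (exact permutation p = 0.103, adjusted p = 0.414) and r = −0.889 without the 2 libraries farthest from the Foxp3 median. By rho it was Ikzf4 and Nrp1, with rho = −0.886 (exact permutation p = 0.0333, adjusted p = 0.414) and r = −0.696 (exact permutation p = 0.118, adjusted p = 0.469). After adjustment 0 of 45 pairs passed, and a genotype holds too few libraries for a value of its own.

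**Figure D5:**
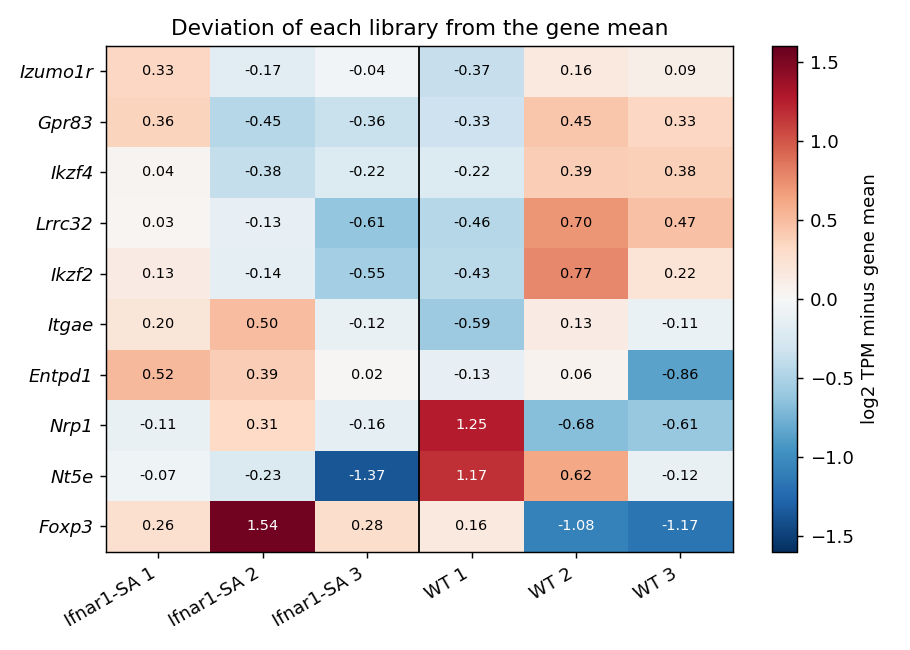
Log2 TPM of each gene in each library minus the gene's mean over the 6 libraries, in colour and numbers, with 3 Ifnar1-SA libraries left and 3 WT libraries right of the line. Gpr83 and Ikzf2 are below their means in Ifnar1-SA 2, Ifnar1-SA 3 and WT 1, and Foxp3 is at 1.54 in Ifnar1-SA 2 and −1.17 in WT 3.

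Among 5610 other genes averaging 10 TPM or more, those most like Izumo1r over the 6 libraries were the small nucleolar RNA Snord58b (Pearson's r = 0.997), Tarbp2, a partner of Dicer (r = 0.996), and the chemokine receptor gene Ccr8 (r = 0.989). Ccr8, which marks activated Treg and type 2 helper cells, was also near Izumo1r in level, at 615, 390 and 448 TPM in Ifnar1-SA and 362, 533 and 497 TPM in WT. Of 5611 genes, those most like Foxp3 were the GTP-binding protein gene Gem (r = 0.986), the parathyroid hormone gene Pth (r = 0.963) and Taf13, a subunit of the general factor TFIID (r = 0.951). Pth was abundant, at 1104, 3428 and 1633 TPM in Ifnar1-SA and 1505, 534 and 578 TPM in WT. With 6 points and 5611 candidates, correlations of this size describe these libraries only.

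Genes known to control or assist Foxp3 were mostly expressed and none passed. Of 35 listed regulators and partners 33 were tested, with 9 higher and 24 lower by mean log2 value, and the median log2 fold change was −0.16 beside −0.06 over all genes. Gata3, 1 of the 9 higher, averaged 148 ± 12.9 TPM in Ifnar1-SA and 143 ± 4.72 TPM in WT (SD, n = 3 each). The genes named next were all lower by mean, and Stat5a and Runx1 were picked after their values were seen. Tcf7, a transcription factor typical of naive T cells, was at 10.8, 5.19 and 7.52 TPM in Ifnar1-SA and 10.2, 17.0 and 16.0 TPM in WT (limma adjusted p = 0.9997), with WT 1 below the highest Ifnar1-SA library. Its relative Lef1 averaged 34.2 ± 7.31 TPM in Ifnar1-SA and 48.9 ± 11.9 TPM in WT (SD, n = 3 each). Stat5a, which carries the interleukin-2 signal to the Foxp3 locus, averaged 87.0 ± 21.1 TPM in Ifnar1-SA and 105 ± 29.6 TPM in WT (SD, n = 3 each), and Runx1, a Foxp3 partner, 6.01 ± 0.567 TPM in Ifnar1-SA and 7.59 ± 1.55 TPM in WT. The order with WT 1, Ifnar1-SA 2 and Ifnar1-SA 3 lowest was seen in 15 of the 33 tested regulators and partners, beside 20.5% of all genes tested. It was also seen in 9 of 14 genes of the TGF-beta response, whose median log2 fold change was −0.27 with 0 passing.

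Other genes of the Treg surface and effector programme numbered 26, of which 24 reached a mean of 1 TPM and were tested. Of these 24, 0 passed, 15 were higher and 9 lower by mean log2 value, and the median log2 fold change was 0.13. The libraries of 4 of them were higher in Ifnar1-SA without overlap, where the share over the genes tested was 1.97%. Among these, Lag3, an inhibitory receptor, was at 41.2, 32.6 and 37.95 TPM in Ifnar1-SA and 24.4, 27.1 and 25.1 TPM in WT (limma adjusted p = 0.9997). Il10, the anti-inflammatory cytokine, was at 256, 320 and 344 TPM in Ifnar1-SA and 222, 135 and 212 TPM in WT (limma adjusted p = 0.9997). For the partners of Itgae and Lrrc32 (9 tested) and of Nrp1 (9 tested) 0 passed, with median log2 fold changes of −0.004 and −0.03. The 12 interferon-stimulated genes, listed with their earlier results known, had a median log2 fold change of 1.26, with 12 of 12 higher by mean log2 value and 10 without overlap. Of these 12, 0 passed an adjusted p of 0.05 and 10 had an unadjusted p under 0.05.

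Markers of other cells that could express these genes were compared between the genotypes. Of 13 myeloid and dendritic markers 2 reached a mean of 1 TPM, with list sums of 14.3 to 16.3 TPM in Ifnar1-SA and 11.8 to 20.0 TPM in WT. Of 7 B cell markers 3 did, with sums of 5.65 to 10.6 TPM in Ifnar1-SA and 5.72 to 13.6 TPM in WT, and of 8 stromal and endothelial markers 1 did, with sums of 3.18 to 4.49 TPM in Ifnar1-SA and 3.63 to 6.91 TPM in WT. The 10 CD8 T and NK cell markers, of which 4 reached 1 TPM, summed to 83.9 to 130 TPM in Ifnar1-SA and 51.7 to 60.6 TPM in WT without overlap. Without the granzyme gene Gzma those sums were 20.7 to 30.7 TPM in Ifnar1-SA and 20.1 to 24.3 TPM in WT, which overlapped, and none of these markers was at 0 in all libraries. Of 11 CD4 T cell genes 8 were found. They summed to 2141 to 2367 TPM in Ifnar1-SA and 1993 to 2116 TPM in WT, also without overlap. The part of these marker levels in the Foxp3 and Entpd1 values was not tested. The Y-linked gene Eif2s3y was at 0 TPM in WT 3 and at 10.9 to 23.2 TPM in the other 5 libraries. Xist did not set WT 3 apart: it was at 4.67, 4.80 and 4.66 TPM in Ifnar1-SA and at 3.37, 8.08 and 7.63 TPM in WT. Without WT 3 the log2 difference was 0.47 for Foxp3 (exact permutation p = 0.3) and 0.28 for Entpd1.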

How the data were processed

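RNA of cultured T cells was extracted with a miRNeasy kit and made into mRNA libraries, per the labels' protocols. A single table was deposited by the authors, holding TPM per gene symbol. The submitters' processing notes name Salmon, mm10 and GRCm38. No version, annotation, strand setting or filter is given in the sources used here. TPM keeps no depth, so no counting interval is printed.

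Values were put on the log2(TPM + 1) scale, and 12141 genes whose mean reached 1 TPM entered limma 3.58.1 in R 4.3.3 (intensity trend, two-sided, no replicate block). Adjustment was Benjamini-Hochberg over all of these, at a threshold of 0.05. Genes below that mean had exact two-sided permutation tests. Fold changes on this scale understate low genes. The limma procedure was tested on simulated data in which only genes of higher level were changed. That test does not cover genes as low as Nrp1, Lrrc32, Ikzf2 and Itgae. Gene spans are those of GENCODE M21 (GRCm38), by symbol. Tables, exact tests and figures used Python 3.11.15 with scipy 1.17.1, pandas 2.3.3, matplotlib 3.10.9 and numpy 2.4.6.

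The 10 genes and all companion lists were chosen with earlier results of these data known. The rule for further names took the 2 genes of smallest p from each list (the 2 most abundant for marker, lineage and Ikaros lists), direct partners, and the 3 genes most like Foxp3 and Izumo1r. Some of these are given only within their list's counts. Ctla4 and Il2ra came from the list of Treg markers. Ikzf5, Stat5a, Runx1, Ccdc22, Flicr, Haspin, Eif2s3y, Xist and the ratios between genes were chosen after their values were seen. Alternatives were other pseudocounts, filters, scalings, moderation, array weights, a replicate block and left-out libraries.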

Additional observations from a re-analysis of the deposited data

How the results depend on the processing

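No setting called any of the 10 genes, but Foxp3 and Nt5e entered limma only with no filter. Elsewhere they had permutation tests, whose p cannot fall below 0.1, so a call at 0.05 was not possible. With a mean of at least 5 TPM only 3 of the 10 entered limma. The count of genes over the whole table, 7, was 15 and 14 with pseudocounts of 0.1 and 0.5, 0 with no filter (718 genes at an unadjusted p under 0.05), 1 with a mean of at least 5 TPM, 12 with robust empirical Bayes, 12 with array weights, 0 with a replicate block (399 at an unadjusted p under 0.05), 14 to 28 without 1 library, and 20 without both WT 2 and Ifnar1-SA 1. The genes of the companion lists, of which 0 passed, gave 1 call, Irf7, without Ifnar1-SA 2 (0 to 1 without 1 library). Of the 10 genes 3 were expressed at a mean of at least 5 TPM, against 8 at 1 TPM. Without Ifnar1-SA 2 the 8 became 7, and 6 were at 1 TPM or more in every library. The log2 fold change of Nrp1, −0.04, turned to 0.0138 with a pseudocount of 0.1, 0.00663 and 0.0805 with median-of-ratios and quantile scaling and 0.160 with array weights, and lay between −0.263 and 0.386 without 1 library. That of Izumo1r, 0.08, was −0.0902 with array weights and lay between −0.0855 and 0.180 without 1 library. The Entpd1 to Nt5e log2 ratio, for which leaving out libraries was added after seeing the data, differed by 1.47 to 1.89 without 1 library, and that of Izumo1r to Gpr83 by 0.319 to 0.494. For the changes above the cause was not tested. The other 8 genes kept their direction in every setting run, but not their size: Ikzf2 (−0.21) ran from −0.38 to −0.04, Lrrc32 (−0.31) from −0.53 to −0.16, Gpr83 (−0.27) from −0.53 to −0.14, Ikzf4 (−0.32) from −0.50 to −0.23, Itgae (0.19) from 0.10 to 0.34, Entpd1 (0.49) from 0.28 to 0.63, Nt5e (−0.28) from −0.83 to −0.17 and Foxp3 (0.54) from 0.31 to 1.19. The median of the 10, −0.13, ran from −0.20 without WT 3 to −0.04 with quantile scaling. The titles do not say whether their numbers pair the libraries. Same-numbered libraries deviated together with r = −0.112, −0.106 and 0.151. The highest r was 0.248, between Ifnar1-SA 1 and WT 2, while for Ifnar1-SA 3 and WT 3 their shared 0.151 was the highest of either library. Deviations from means of 3 libraries depend on each other, so these values cannot decide whether a pairing exists. The replicate block was applied to the limma fits, not to the permutation tests of Foxp3 and Nt5e. Unknown depth limits the genes below 1 TPM.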
